A study of Mus musculus with 6 samples.

Results

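Genes of complement, of Toll-like and NOD receptors and of the secreted defence layer of the airway were compared in cells sorted from mouse small-cell lung cancer. The groups were Hes1-reporting and non-reporting cells. The set lists 39 genes, and 37 of them were measured by an array row that names that gene alone, out of 22179 genes tested. C1s was found under its current symbol C1s1, through its Entrez identifier. C3 and Cfd, central to complement activation, were not analysed here. A gene with several rows was represented by the row with the highest mean.

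The tumours arose in mice with conditional alleles of Rb, p53 and p130, deleted in the lung by adenovirus carrying Cre given into the trachea. The mice also carried a green fluorescent protein (GFP) reporter for Hes1, a repressor induced by Notch signalling. At 5 to 6 months from Cre delivery the tumours of 3 mice were combined and sorted into GFP-high and GFP-negative cells, the latter labelled negative or low. Each population gave 3 arrays. Both groups come from mice with the same conditional alleles and reporter, and they were sorted by reporter level. Whether every sorted cell carried the deletions was not tested here. Which cells the virus expressed Cre in, the gates of the sort and whether each replicate had its own pool are not stated in the labels, which call the arrays biological replicates, so p-values measure the spread between these samples.

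Complement is a cascade of plasma and locally made proteins. C1r activates C1s, proteases such as C1s, C2 and factor B cleave C4 and C3, and later components assemble a pore in the target membrane. Host cells are shielded by inhibitors, among them the surface proteins CD55, CD46 and CD59. Toll-like receptors recognise microbial lipids, flagellin and nucleic acids, mostly signal through the adaptor MyD88, and activate NF-kB. In the airway, secretory and alveolar epithelial cells release lactoferrin, lipocalin, antiproteases, lysozyme and mucins.

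Values are log2 expression from RMA, a method that makes the arrays' distributions alike, so 1 unit is a doubling, and a change common to most genes would be removed. Differences are GFP-high minus GFP-negative, given with their standard error (SE), and a gene was called at an adjusted p under 0.05 by limma with Benjamini-Hochberg adjustment over all 22179 genes. Hes1 itself was 10.40 ± 0.11 in GFP-high cells and 6.85 ± 0.18 in GFP-negative cells (SD, n = 3 each). Across genes, which are not independent replicates, the correlation between arrays was 0.987 to 0.991 inside a group and 0.918 to 0.940 for arrays of different groups. As a check of the labelled tumour type, the mean over 10 measured neuroendocrine markers was 9.73 to 9.89 on the GFP-negative arrays and 7.31 to 8.22 on the GFP-high arrays, and all 10 were lower in GFP-high cells. The small number of arrays limits the precision.

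Of the 37 measured members, 22 were called, with 21 higher in GFP-high cells, 1 lower and 15 not passing. Over all genes 30% were called, 13% higher and 17% lower. These shares over all genes are the reference for each count by role or list below. Members and gene lists were chosen with earlier results of these data known, so an excess over these shares is not an independent finding. The median difference was 0.90 over the members and 0.01 over all tested genes. No overlap between the groups was seen in 25 members, against 44.6% of all genes. In 23 of them every GFP-high array lay above every GFP-negative array and in 2 every one lay below, against 20% and 24.6% of all genes. A called rise of at least 1 was seen in 16 members and in 5.63% of all genes. Differences of at least 3 on the log2 scale were reached by 6 members, Lcn2, Tlr5, Ltf, Muc4, Pigr and Cd55, while 1.05% of all genes rose that far. Among 12 members whose means lay under the median gene level of 5.98 in both groups, 3 were called, and among the other 25 members 19 were called. A rise in GFP-high cells itself moves a gene out of the first class, so this split is not independent of the calls. The shares called in these classes over all genes were not computed, and no conclusion is drawn. Background signal shrinks the fold of a dim gene. In sorted bulk samples a change in the share of a cell type and a change in RNA per cell cannot be told apart.

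**Figure D1:**
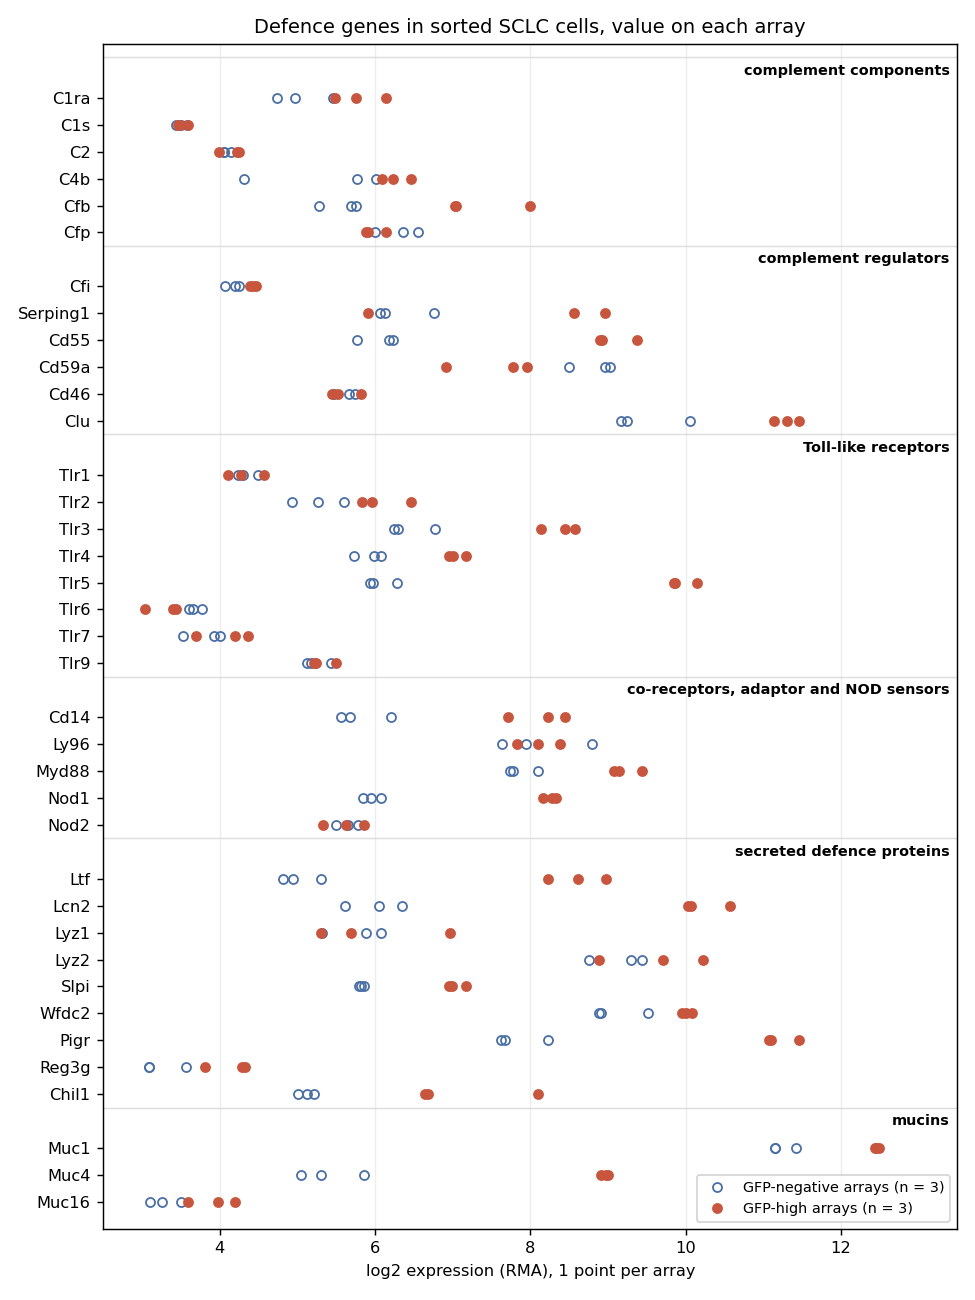
Log2 expression (x axis) of each of the 37 measured members (y axis, grouped by role) on 6 arrays, with open circles for the 3 GFP-negative arrays and filled circles for the 3 GFP-high arrays. Lcn2, Tlr5, Ltf, Muc4, Pigr and Cd55 show the widest gaps, and 1 GFP-high point of Serping1 lies below its GFP-negative points.

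Among the complement components, factor B moved most. Cfb, the protease of the alternative pathway, read 7.03, 7.04 and 8.0 on the GFP-high arrays and 5.69, 5.28 and 5.75 on the GFP-negative arrays. The groups did not overlap, and GFP-high replicate 3 stood above the other GFP-high arrays. The difference was 1.78 ± 0.26 (3.44-fold, adjusted p = 0.00100 by limma). C1ra, which encodes the protease that activates C1s, read 5.75, 5.49 and 6.14 against 5.46, 4.74 and 4.97. Its highest GFP-negative value lay just under its lowest GFP-high value, and the difference of 0.74 ± 0.22 (adjusted p = 0.0337 by limma) passed narrowly. It lost its call without GFP-high replicate 1 (0.0741) or 3 (0.0989), without GFP-negative replicate 2 (0.110) or 3 (0.0880), with array weights (0.0520) and without moderation (0.158). Of 6 measured components 2 rose and 4 did not pass, and the median difference was 0.40.

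The other components gave smaller or less even differences. C4b, the component that marks surfaces in the classical pathway, read 6.46, 6.10 and 6.23 in GFP-high cells and 5.76, 4.32 and 6.02 in GFP-negative cells. Here 1 GFP-negative array, replicate 2, was low, and the difference of 0.90 ± 0.38 did not pass (adjusted p = 0.119 by limma). It was 0.37 without that array, and without GFP-negative replicate 3 it was 1.22 and passed (0.0432). C2, the protease of the classical pathway, read between 3.99 and 4.26 in GFP-high and between 4.05 and 4.14 in GFP-negative cells, and C1s between 3.47 and 3.60 and between 3.44 and 3.58. Both lay low on the scale with overlapping groups. Another row for C1s read 4.39 on GFP-high replicate 1 and 2.48 to 2.95 on the other arrays. Cfp, encoding properdin, which stabilises the alternative pathway protease, read 6.14, 5.90 and 5.89 against 6.36, 6.00 and 6.56. The difference of -0.33 ± 0.16 passed only without GFP-negative replicate 2 (-0.48, adjusted p = 0.0433 by limma).

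Of genes that lie side by side, Cfb and C1ra were called while their neighbours C2 and C1s were not. By gene order in RefSeq (GRCm38.p6) no other coding gene lies between Cfb and C2, between C1ra and C1s, between Tlr1 and Tlr6 or between Lyz2 and Lyz1. The differences within these pairs were 1.78 and 0.07 for Cfb and C2, 0.74 and 0.01 for C1ra and C1s, -0.03 and -0.39 for Tlr1 and Tlr6, and 0.45 and 0.23 for Lyz2 and Lyz1. No gene of the Tlr and Lyz pairs was called, and whether the members of any pair differed from each other was not tested. C4b, C1ra, C1s, Cd59a, Lyz1 and Lyz2 have close relatives in the mouse genome, and how far the array's probes also read those relatives was not tested.

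Complement regulators went both ways. Cd55, encoding the surface protein that speeds the decay of the C3-cleaving enzymes, read 9.37, 8.93 and 8.89 in GFP-high cells and 5.77, 6.18 and 6.24 in GFP-negative cells. The groups were far apart, at 3.00 ± 0.18 (8.01-fold, adjusted p = 6.14e-06 by limma). Clu, encoding clusterin, a secreted chaperone that also binds the terminal complex, read 11.46, 11.30 and 11.13 against 9.17, 10.06 and 9.24. It rose by 1.81 ± 0.23 (3.50-fold, adjusted p = 0.000441 by limma).

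Cd59a, encoding the membrane inhibitor of pore assembly, was the member that fell. It read 7.78, 6.92 and 7.96 in GFP-high and 9.02, 8.97 and 8.5 in GFP-negative cells, without overlap. The difference was -1.28 ± 0.27, a 2.43-fold lower level (adjusted p = 0.00653 by limma), and it missed the threshold in a per-gene test without moderation (0.0824). Its relative Cd59b, from the list of other complement genes, fell by 0.68 ± 0.14, and shared signal between the pair was not tested. Cd46, encoding a cofactor for C3b cleavage, read 5.45 to 5.82 and 5.48 to 5.74 in the 2 groups, with a difference of -0.03 ± 0.14. Cfi, encoding the protease that inactivates C3b and C4b, was above its GFP-negative values on every GFP-high array (4.39 to 4.46 against 4.07 to 4.25), but its difference of 0.25 ± 0.11 did not pass (adjusted p = 0.115 by limma). It passed in a per-gene test without moderation (0.0478).

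Serping1, encoding the inhibitor of C1r and C1s, divided the GFP-high arrays. It read 8.56 on replicate 1, 5.91 on replicate 2 and 8.96 on replicate 3, and 6.07, 6.75 and 6.13 on the GFP-negative arrays. So 2 GFP-high arrays stood above all GFP-negative arrays and 1 stood below them. The difference of 1.5 ± 0.68 did not pass (adjusted p = 0.142 by limma), and without GFP-high replicate 2 it was 2.45 ± 0.24 and passed (0.000407). Of the 6 regulators 2 rose, 1 fell and 3 did not pass.

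Of 29 measured other complement genes, 4 rose, 3 fell and 22 did not pass (13.8% and 10.3%, close to the shares over all genes). The largest differences were those of C6 and Hc, while the other 5 measured genes of the membrane pore, C7 (0.16), C8a (0.16), C8b (-0.12), C8g (0.25) and C9 (-0.07), did not pass. C6, a pore component, read 8.59, 8.47 and 8.81 in GFP-high cells and 4.72, 4.48 and 4.38 in GFP-negative cells, a difference of 4.10 ± 0.14 (17.1-fold, adjusted p = 3.62e-07 by limma). Hc, which encodes C5, whose cleavage starts pore assembly, read 7.59, 7.54 and 8.5 against 4.04, 3.62 and 4.09, a difference of 3.96 ± 0.26 (15.6-fold). In both, all GFP-high arrays were at least 3 units above all GFP-negative arrays. C1rl, a relative of C1ra, rose by 1.10 ± 0.12, and Susd4, a membrane regulator named after its value was seen, by 0.55 ± 0.16. Vtn, encoding vitronectin, an inhibitor of the terminal complex, fell by 0.58 ± 0.11. The recognition subunit C1qa fell by 0.42 ± 0.13, C1qb gave -0.32 ± 0.36 and did not pass, and the rodent regulator Cr1l gave 0.21 ± 0.11 and did not pass.

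**Figure D2:**
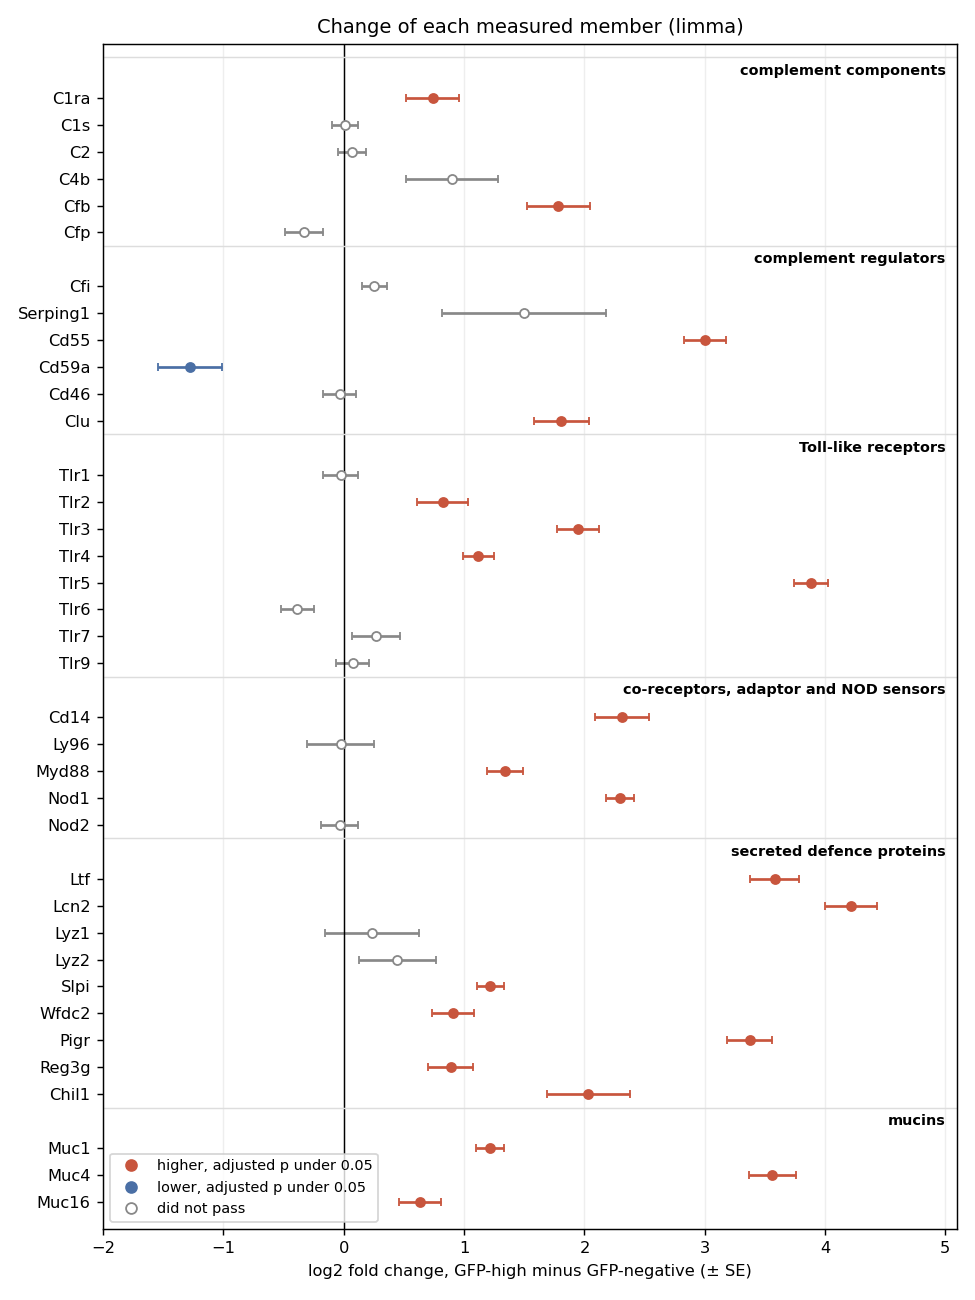
Log2 fold change, GFP-high minus GFP-negative, with its standard error (x axis) for each of the 37 measured members (y axis, grouped by role), filled where limma's adjusted p was under 0.05. There are 21 members to the right of 0 that passed and 1, Cd59a at -1.28, to the left.

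Of 8 measured Toll-like receptors 4 rose and 4 did not pass. Tlr5, the receptor for flagellin, read 9.86, 9.85 and 10.14 in GFP-high cells and 5.98, 6.28 and 5.93 in GFP-negative cells. It differed by 3.88 ± 0.14 (14.8-fold, adjusted p = 4.78e-07 by limma), ranking at 100 of all 22179 genes by absolute difference. Tlr3, the endosomal receptor for double-stranded RNA, read 8.45, 8.13 and 8.57 against 6.29, 6.77 and 6.25, a rise of 1.94 ± 0.18 (3.85-fold, adjusted p = 7.93e-05 by limma). In both receptors the arrays of a group lay close together, and the gap between groups was wider than 1 unit.

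Tlr4, the receptor for bacterial lipopolysaccharide, read 6.96, 7.01 and 7.17 in GFP-high cells and 5.98, 6.07 and 5.73 in GFP-negative cells, a rise of 1.12 ± 0.13. Tlr2, a receptor for bacterial lipoproteins, read 6.46, 5.83 and 5.97 against 5.26, 4.93 and 5.60. Its groups were separated by a narrow gap, and the rise of 0.82 ± 0.21 (adjusted p = 0.0181 by limma) lost its call without GFP-negative replicate 1 (0.0542) or 2 (0.0603) or GFP-high replicate 1 (0.0575), and without moderation (0.116).

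The partners of Tlr2 and the receptors for single-stranded nucleic acids did not pass. Tlr1 and Tlr6, which pair with Tlr2, lay low on the scale. Tlr1 read 4.11 to 4.57 in GFP-high and 4.24 to 4.50 in GFP-negative cells. Tlr6 was below its GFP-negative values on every GFP-high array (3.04 to 3.44 against 3.61 to 3.77), at -0.39 ± 0.14 (adjusted p = 0.0664 by limma), and passed under quantile normalization (0.0389) and with array weights (0.0495). Tlr7, an RNA receptor, read 3.70 to 4.36 and 3.53 to 4.0, and Tlr9, a receptor for unmethylated DNA, 5.21 to 5.5 and 5.13 to 5.44. Their differences were 0.27 ± 0.20 and 0.07 ± 0.13, within overlapping groups.

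Of the Tlr4 co-receptors Cd14 rose and Ly96 did not pass. Cd14, which hands lipopolysaccharide to the receptor, read 8.23, 7.71 and 8.44 in GFP-high cells and 6.20, 5.56 and 5.68 in GFP-negative cells, a rise of 2.32 ± 0.22 (4.98-fold, adjusted p = 0.000109 by limma). Ly96, encoding the MD-2 subunit that binds lipopolysaccharide, read 8.10, 7.83 and 8.38 against 7.64, 8.80 and 7.95. GFP-negative replicate 2 was its highest array, and the difference of -0.02 ± 0.28 turned to 0.31 without it, neither passing.

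Myd88, the shared adaptor, read 9.44, 9.14 and 9.07 in GFP-high and 7.78, 8.10 and 7.74 in GFP-negative cells, a rise of 1.34 ± 0.15 (2.54-fold, adjusted p = 0.000220 by limma). Nod1, a cytosolic sensor of bacterial peptidoglycan, read 8.33, 8.27 and 8.16 against 5.95, 5.85 and 6.07. It rose by 2.30 ± 0.11 (4.91-fold, adjusted p = 2.45e-06 by limma), with the arrays of each group within 0.3 units of each other. Nod2, the other peptidoglycan sensor, read 5.32 to 5.86 in GFP-high and 5.49 to 5.78 in GFP-negative cells, with a difference of -0.03 ± 0.16. Another row for Nod2 gave 0.00 ± 0.13.

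Of 42 other measured genes of Toll and NOD signalling, 14 rose, 4 fell and 24 did not pass, with a median difference of 0.20. That is 33.3% higher and 9.5% lower, against 13% and 17% of all genes. Irak2, a kinase-like adaptor downstream of MyD88, rose by 2.25 ± 0.14, from 6.14, 6.45 and 6.05 to 8.48, 8.60 and 8.31. Irak3, an inhibitor of the same step, fell by 2.14 ± 0.27, from 8.72, 8.79 and 8.22 to 6.28, 5.97 and 7.06. These relatives were separated between the groups in opposite directions. Casp1, the inflammasome protease, rose by 1.97 ± 0.21, Cd36, a scavenger receptor that assists Tlr2, by 2.00 ± 0.37, and Lbp, the lipopolysaccharide-binding protein, by 1.71 ± 0.29. The inflammasome adaptor Pycard (0.04 ± 0.14), the adaptor Ticam1 (-0.08 ± 0.13) and the ligase Traf6 (-0.14 ± 0.13) did not pass. Among genes named after their values were seen, the NF-kB subunit Nfkb2 rose by 1.62 ± 0.16, and the NF-kB feedback inhibitors Tnfaip3 and Nfkbia by 1.19 ± 0.24 and 0.81 ± 0.19. Nfkbiz (0.29 ± 0.17) and Ikbkb (0.27 ± 0.11) of the same list did not pass. The other 3 that fell were Irak1 (-0.50), Tab2 (-0.48) and Tollip (-0.39).

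**Figure D3:**
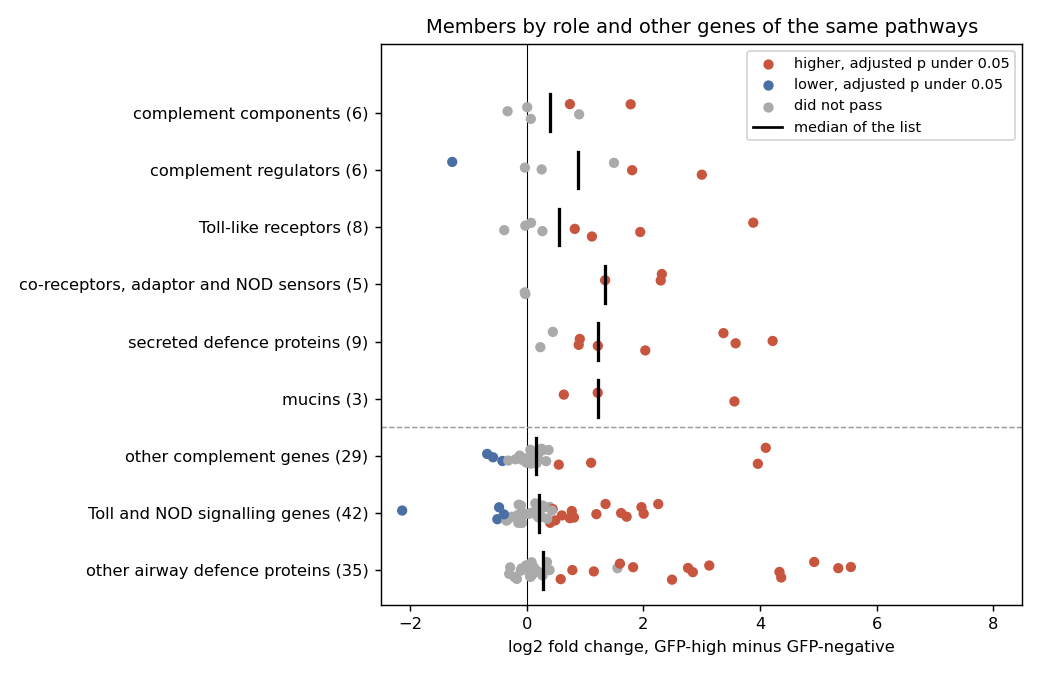
Log2 fold change, GFP-high minus GFP-negative (x axis), of every measured member by role and of 3 lists of other genes of the same pathways (y axis, number of genes in brackets), with 1 point per gene and a bar at each list's median. Every role has a median above 0, and the largest values are in the other airway defence proteins, up to 5.56.

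Promoter windows from RefSeq (GRCm38.p6, 250 bases before to 50 after the start) were found for 27 of the 37 members, 17 of them called higher. Searched on both strands, either of the NF-kB forms (GGG, any 2 bases, then TTTCC or TTCCC) occurred in 4 of these 17, in 0 of the other 10 members and in 3.73% of 27025 genes with a window. The 4 genes are Tlr3, Tlr2, Cd55 and Reg3g. The form ending in TTTCC was found in 1 of them, Tlr3 (1.89% of all genes). The form ending in TTCCC was found in the other 3 (2.01%). The motif of interferon regulatory factors (GAAA, any 2 bases, then GAAA) occurred in Myd88, the shared adaptor, and in 3 members that were not called higher (Cd46, Cd59a and Tlr6), against 3.99% of all genes. Of the remaining motifs, TTCNNNGAA of STAT factors occurred in 6 members, 4 of them called higher (9.55% of all genes). TGGGAA of RBPJ, the DNA-binding partner of Notch, occurred in 12 members, 7 of them called higher (28.3%). TGANTCA of AP-1 occurred in 1, Tlr9, which was not called (8.97%). The motifs were chosen with these results known, differences between these shares were not tested, and no conclusion is drawn from them. TGGGAA overlaps the NF-kB match in Tlr2 and Reg3g. These matches describe letters in a window, not binding. Stretches around the matches of 4 members that rose with a NF-kB form and of Myd88 are shown because they hold the motif of the pathway these receptors and their adaptor signal to, or of the interferon branch. Each is written 5′ to 3′ on the gene's strand with the matched bases in capitals.
Tlr3: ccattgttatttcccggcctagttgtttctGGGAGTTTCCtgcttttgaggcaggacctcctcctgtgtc
Tlr2: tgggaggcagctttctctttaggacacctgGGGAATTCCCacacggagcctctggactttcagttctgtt
Cd55: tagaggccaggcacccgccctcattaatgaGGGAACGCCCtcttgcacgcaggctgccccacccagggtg
Reg3g: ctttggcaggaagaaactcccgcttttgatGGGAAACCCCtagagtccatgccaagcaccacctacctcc
Myd88: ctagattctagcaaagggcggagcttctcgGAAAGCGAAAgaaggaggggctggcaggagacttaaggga
All 5 lie on the minus strand, at chr8:45410552-45410621 for Tlr3, chr3:83841741-83841810 for Tlr2, chr1:130462766-130462835 for Cd55, chr6:78468958-78469027 for Reg3g and chr9:119340019-119340088 for Myd88. The match begins 211 bases before the start in Tlr3, 172 in Tlr2, 123 in Reg3g, 61 in Cd55 and 40 in Myd88. In Cd55 and Reg3g the form is matched on the opposite strand.

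Of 9 secreted defence proteins 7 were higher and 2 did not pass, and Lcn2 had the largest difference of any member. Lcn2, encoding a lipocalin that captures bacterial iron carriers, read 10.03, 10.07 and 10.57 in GFP-high cells and 5.61, 6.06 and 6.35 in GFP-negative cells. The difference was 4.22 ± 0.21 (18.6-fold, adjusted p = 2.62e-06 by limma). Ltf, encoding lactoferrin, which binds iron, read 8.23, 8.61 and 8.97 against 4.94, 5.31 and 4.82, a rise of 3.58 ± 0.20 (12.0-fold). Pigr, the receptor that carries dimeric IgA across epithelia, read 11.10, 11.08 and 11.47 against 7.62, 8.23 and 7.67, a rise of 3.37 ± 0.19 (10.4-fold). All 3 were separated between the groups by over 2 units.

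The other 4 that rose had smaller differences. Slpi, an inhibitor of leukocyte elastase, read 7.0, 7.17 and 6.95 in GFP-high and 5.86, 5.82 and 5.79 in GFP-negative cells, a rise of 1.22 ± 0.11. Wfdc2, a related secreted protein of epithelia, read 10.09, 10.004 and 9.95 against 8.91, 9.52 and 8.88, a rise of 0.91 ± 0.18. Reg3g, encoding a lectin that kills Gram-positive bacteria, lay low on the scale at 4.29, 3.81 and 4.33 against 3.10, 3.09 and 3.57, and rose by 0.89 ± 0.19 (adjusted p = 0.00667 by limma). Chil1, encoding a chitinase-like protein without enzyme activity, read 6.69, 6.65 and 8.10 against 5.21, 5.13 and 5.01. It rose by 2.03 ± 0.35 (4.09-fold, adjusted p = 0.00216 by limma), with GFP-high replicate 3 well above the other arrays. Wfdc2, Reg3g and Chil1 missed the threshold in a per-gene test without moderation (0.0534, 0.0671 and 0.0557).

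The lysozyme genes did not pass and followed single arrays. Lyz2, the lysozyme gene of macrophages and alveolar type 2 cells, read 9.71, 8.89 and 10.23 in GFP-high cells and 9.44, 8.76 and 9.30 in GFP-negative cells. Its difference of 0.45 ± 0.32 (adjusted p = 0.350 by limma) became 0.81 and passed without GFP-high replicate 2 (0.0482). Lyz1 read 5.70, 5.30 and 6.97 against 6.07, 5.88 and 5.32. Its highest array was GFP-high replicate 3, and its difference of 0.23 ± 0.39 was -0.26 without that array, neither passing.

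All 3 mucin genes rose. Muc4, a membrane mucin, read 8.91, 9.0 and 8.98 in GFP-high cells and 5.31, 5.86 and 5.04 in GFP-negative cells, a difference of 3.56 ± 0.19 (11.8-fold, adjusted p = 4.10e-06 by limma). Muc1, a membrane mucin of most glandular epithelia, read 12.43, 12.49 and 12.45 against 11.15, 11.42 and 11.15, a rise of 1.22 ± 0.12. The GFP-high arrays agree within 0.1 units in both. Muc16 lay low on the scale, at 3.60, 3.98 and 4.20 against 3.26, 3.11 and 3.51. Its groups nearly touched, and the rise of 0.63 ± 0.18 (adjusted p = 0.0250 by limma) lost its call without GFP-negative replicate 1 (0.0752) or 2 (0.0850) or GFP-high replicate 2 (0.0753) or 3 (0.0748), and without moderation (0.117).

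Of 35 other measured airway defence genes, 14 rose and 21 did not pass, and the median difference was 0.27. The share that rose was 40%, against 13% of all genes. Retnla, a secreted cysteine-rich protein, rose by 5.56 ± 0.33, from 3.89, 5.34 and 4.19 to 10.29, 9.89 and 9.92. The haemoglobin-binding Hp rose by 5.34 ± 0.14, the copper carrier Cp by 4.93 ± 0.14, the surfactant lectin Sftpd by 4.36 ± 0.12 and the gel-forming mucin Muc5b by 4.33 ± 0.23. Small differences were named only among genes whose mean over both groups lay above the median level. Of the 35 genes, 22 had both group means under it. A rise itself helps a gene over that level, so those named are not the least changed of the list. Chil3, a macrophage chitinase-like protein, gave -0.21 ± 0.67 and did not pass. Pglyrp1, a peptidoglycan-binding protein, rose by 1.15 ± 0.20. The mucin Muc2 rose by 1.82 ± 0.27, and its GFP-negative mean (5.83) lay under the median level.

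Many members are also made by leukocytes, so leukocyte markers were read on the same arrays. Of 10 pan-leukocyte markers 1 rose, 1 fell and 8 did not pass, and their mean level was 5.96 to 6.37 on the GFP-high arrays and 5.78 to 6.12 on the GFP-negative arrays. Ptprc, which encodes CD45, read 4.66, 4.16 and 4.95 in GFP-high and 5.42, 4.88 and 4.86 in GFP-negative cells. Cd53 differed by -0.11, Laptm5 by 0.16 and Coro1a by -1.09, of which the last was called. The marker that rose was Lcp1, by 3.25, named after its value was seen. Of 19 macrophage and monocyte markers other than the member Lyz2, 2 rose (Mertk by 0.92 and Mpeg1 by 1.18), 1 fell (C1qa) and 16 did not pass. Their median difference was -0.01. Their mean level was 5.497 to 5.83 in GFP-high cells and 5.38 to 5.78 in GFP-negative cells. Adgre1 (0.31), Csf1r (0.34), Cd68 (0.11) and Mrc1 (-0.30) did not pass.

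Ltf and Lcn2 are stored in neutrophil granules, so neutrophil markers were read as well. S100a8 read 3.05 to 3.19 in GFP-high and 2.83 to 3.10 in GFP-negative cells, S100a9 5.03 to 5.14 and 4.94 to 5.36, Csf3r 4.42 to 4.64 and 4.27 to 4.52, and Cxcr2 4.78 to 5.07 and 4.77 to 5.1. Of 11 neutrophil markers other than Ltf, 1 rose (Retnlg, by 0.65) and 10 did not pass, and the median difference was 0.12. In all 11 both group means lay under the median gene level. The mean level of these 11 was 4.23 to 4.38 in GFP-high cells and 4.09 to 4.19 in GFP-negative cells, so every GFP-high array lay above every GFP-negative array. The part of neutrophils in the Ltf and Lcn2 differences was not tested. An array gives no value that stands for absence, so these levels are compared between the groups only.

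Markers of lung epithelial cells were read in the same way. Of 11 club and secretory markers other than the member Reg3g, 9 rose, with a median of 4.33 over the list. The 2 that did not pass were Aldh1a1 (0.20) and Bpifa1 (1.55). Of 10 alveolar type 2 markers other than Lyz1 and Chil1, 9 rose and 1, Etv5 (0.11), did not pass, with a median of 4.0. The mean level of these club markers was 10.89 to 11.23 on the GFP-high and 7.15 to 7.73 on the GFP-negative arrays, and that of the alveolar type 2 markers 9.54 to 9.98 and 5.93 to 6.36. The part of these marker shifts in the members' differences was not tested. Hp, Muc5b and Bpifa1 of the club list, and Sftpd and Sftpa1 of the alveolar type 2 list, were also counted among the other airway defence genes above. Of 10 endothelial markers Kdr (3.87) and Esam (0.60) rose, Vwf (-2.07) fell and 7 did not pass, Pecam1 (-0.07) and Cdh5 (0.04) among them. Of 10 fibroblast and pericyte markers Acta2 (0.36) rose, Dcn (-1.47) fell and 8 did not pass, Col1a1 (0.46) and Col1a2 (0.45) among them. Of 11 lymphocyte markers Cd79b (0.87) rose and 10 did not pass. These single markers were named after their values were seen.

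The GFP-high arrays differed among themselves in some members. The range over the 3 GFP-high arrays exceeded 1 unit in 5 members, Serping1 (3.05), Lyz1 (1.67), Chil1 (1.45), Lyz2 (1.34) and Cd59a (1.04). Among the GFP-negative arrays C4b and Ly96 exceeded it. GFP-high replicate 3 held the highest GFP-high value of 17 members, replicate 1 of 13 and replicate 2 of 7, while replicate 2 held the lowest of 18. Without the members it also holds, the alveolar type 2 list stood 4.42 above the GFP-negative mean on replicate 3, by its median, and 3.65 and 3.92 above on replicates 1 and 2. The median neuroendocrine marker stood at -1.59 on replicate 3 and at -2.49 and -2.54 on replicates 1 and 2. The club list without Reg3g stood at 4.30, 4.51 and 4.23 on replicates 1, 2 and 3. The part of these shifts in the members' spread was not tested. Without GFP-high replicate 3, and also without replicate 1, 19 members were called higher and 1 lower. Without GFP-high replicate 2 the counts were 22 and 1.

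**Figure D4:**
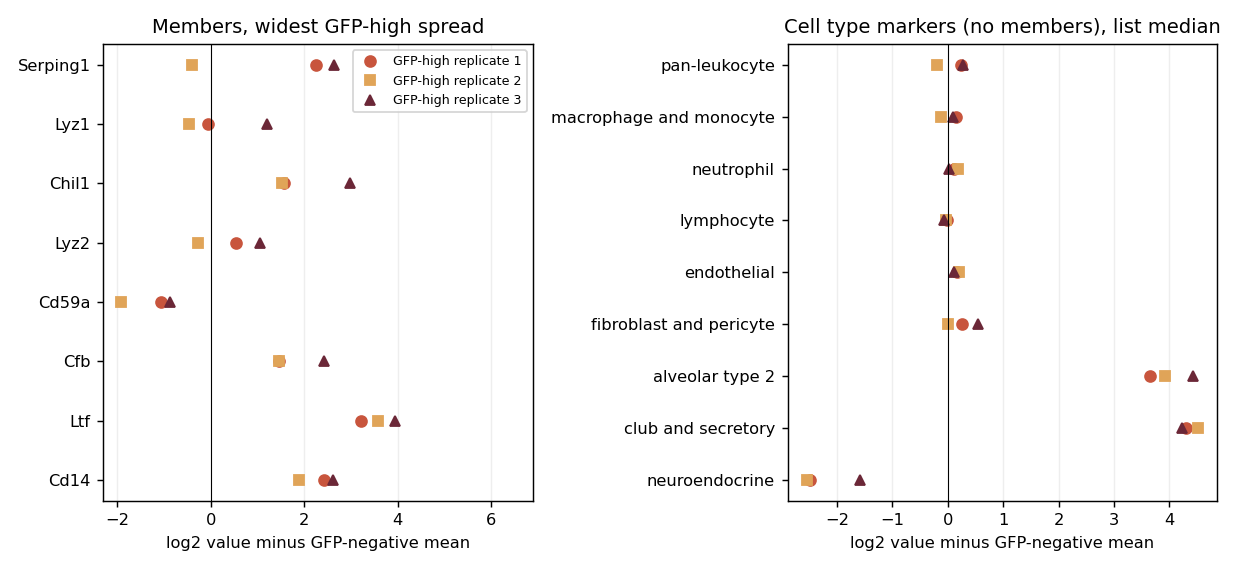
Values on each of the 3 GFP-high arrays minus the GFP-negative mean (x axes, log2 units) for the 8 members with the widest spread (left) and, as the median over each list, for cell type markers without the members (right). Serping1 is low on replicate 2 only, and Lyz1, Chil1 and Cfb are highest on replicate 3, and the alveolar type 2 median without members is 4.42 on that array.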

How the data were processed

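The deposited table holds log2 expression values that the authors made with RMA from Affymetrix Mouse Gene 2.0 ST arrays, per the submitters' processing notes; no version of it is stated. It has 41344 rows, of which 23520 name exactly 1 gene in the platform annotation, 1814 several and 16010 none. Of 1082 genes with several rows the row with the highest mean was used, leaving 22179 genes with no filter on level. Groups of 3 arrays were compared with limma 3.58.1 in R 4.3.3 (lmFit and eBayes, 4.50 prior and 4 residual degrees of freedom), two-sided, without a block, and the code was tested on simulated data. A permutation of 3 against 3 cannot go below p = 0.10. Members and gene lists were chosen with earlier results of these data known, and motifs were chosen with these results known. Named beside all members were, per pathway list, the 5 largest called changes and the 3 smallest among genes above the median level, and the leading markers of each cell type list where a result bore on them. Alternatives covered scaling, filtering, rows, variance model, block, threshold and each array. Figures were drawn with matplotlib 3.10.9 in Python 3.11.15.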

Additional observations from a re-analysis of the deposited data

Results flagged for a closer look

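A row that names both Muc20 and Muc4 was not used in the comparison because it names more than 1 gene. It read 7.38, 7.18 and 7.43 on the GFP-high arrays and 6.38, 6.70 and 6.17 on the GFP-negative arrays. Every GFP-high array lay above every GFP-negative array. Fitted with limma over all 41344 rows, its difference was 0.91 ± 0.16 (adjusted p = 0.00749), against 3.56 for the row that names Muc4 alone.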

How the results depend on the processing

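Of 22 called members, 15 kept their call under each alternative other than the fold minimum: Cd14, Cd55, Cfb, Clu, Lcn2, Ltf, Muc1, Muc4, Myd88, Nod1, Pigr, Slpi, Tlr3, Tlr4 and Tlr5. Over 547 refitted member values, 502 kept direction and call, 19 lost the call, 7 gained it and 19 changed sign. With the replicate number as a replicate block 21 members were called higher and 1 lower, and no member's call changed. The labels do not say whether same-numbered arrays share a pool, and their deviations from the group means correlated at 0.11, -0.03 and -0.00, so the numbers were not taken as pairs. The block gave 2729 genes higher and 3443 lower, against 2888 and 3773. Members called lower were 2 under quantile normalization, 2 with array weights, 0 without moderation (limma's main count was 1), and 1 to 2 without single arrays. Without moderation 16 members were called higher, and 9 of the Toll and NOD signalling genes against 14. With a minimum difference of 1, 1249 genes were higher and 1335 lower, and among Toll and NOD signalling genes 7 and 1, among other complement genes 0 lower. Toll and NOD signalling genes called lower ranged from 2 to 4 without single arrays, the 2 being without GFP-high replicate 1. Leaving out the lowest 30% of genes removed 8 members, Reg3g and Muc16 among them. The sign changes were all in uncalled members. C1s1 gave -0.0035 under median centring and -0.069 under quantile normalization, C2 -0.015 and Ly96 0.045 under quantile normalization, and Ly96 0.10 and Tlr1 0.038 with array weights. Without single arrays C1s1 ranged from -0.032 to 0.044, Cd46 from -0.14 to 0.040, Tlr1 from -0.15 to 0.078, Tlr9 from -0.017 to 0.17, Ly96 from -0.27 to 0.31, Nod2 from -0.16 to 0.11 and Lyz1 from -0.26 to 0.58. The causes were not tested. Median centring and quantile normalization shifted the median gene by -0.01 and -0.03. Signal over background is not given in the table, so which low values are background is unknown.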
